A study of Mus musculus with 162 samples.

Results

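MC903 (calcipotriol), an analog of vitamin D, is painted on mouse skin to set off an inflammation with features of atopic dermatitis. The libraries described here are RNA sequencing of cheek skin at day 2 of that treatment. They were chosen by their labels, as skin of uninjected wild-type mice at day 2, with the third MC903 library left out because it carried ganglion RNA (values below). That gave 4 of the 162 libraries of the series, 2 from MC903-treated and 2 from ethanol-treated skin. All came from C57BL/6 males, 8 to 12 weeks old by the study's methods, and 20 µL of 0.2 mM MC903 in 100% ethanol, or of the ethanol alone, was pipetted daily on the shaved cheek. The wider series holds skin, trigeminal ganglion and spinal cord at times up to day 12. The skin was homogenized whole, so a lower level in a library from fewer cells of a type and from less RNA per cell cannot be told apart. The labels do not say that each library was a separate animal, so the p-values below measure only the spread between these samples.

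Calcipotriol binds the vitamin D receptor, a nuclear receptor that pairs with the retinoid X receptor on DNA and is abundant in keratinocytes. Keratinocytes divide in the basal layer of the epidermis, move upward and end as cornified cells, flat sacs of cross-linked protein set in lipid that form the skin barrier. Keratinocytes under stress turn on another set of keratins and small proline-rich proteins and release cytokines such as TSLP, which act on immune cells and sensory nerves.

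The 4 libraries held 23222800 to 28927563 counts on genes. Taken over genes together, the libraries of a group differed by far more than counting error. The chi-square per degree of freedom was 320.8 between the ethanol libraries and 185 between the MC903 libraries kept. Genes with many counts weigh most in it, and counting error was not set against the spread gene by gene. The left-out MC903 library held 28316476 counts. Its 24 sensory-neuron markers summed to 5059.4 cpm (counts-per-million of the library total), against 84.3 to 116.9 cpm in the other 4 skin libraries and 12360.2 to 16547.3 cpm in the trigeminal ganglia of the same day, or 33.4% of the ganglion level once the skin level was subtracted. Its Schwann cell and satellite glia markers stood at 4555.3 cpm against 324.5 to 408.8 cpm, and its fibroblast markers at 7254 cpm against 25070 to 30804 cpm. In the 4 libraries kept, 10 keratinocyte markers summed to 12089 to 18318 cpm and 9 fibroblast markers were as high in MC903 as in ethanol skin, as the tissue label says. Markers of other tissue also differed between the libraries. Markers of skeletal muscle summed to 14645 and 12284 cpm in the ethanol libraries and to 4745 and 16537 cpm in the MC903 libraries. Secretory gland genes, picked out after their values were seen, jumped between libraries within a group: Mucl2 took 4.17% of all counts in ethanol replicate 2 and 0.00167% in ethanol replicate 1, and Bpifa2 took 1.73% in MC903 replicate 2 and 0.00124% in MC903 replicate 1. The part of these differences in the results was not tested, and none of the gland genes passed the test.

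**Figure D1:**
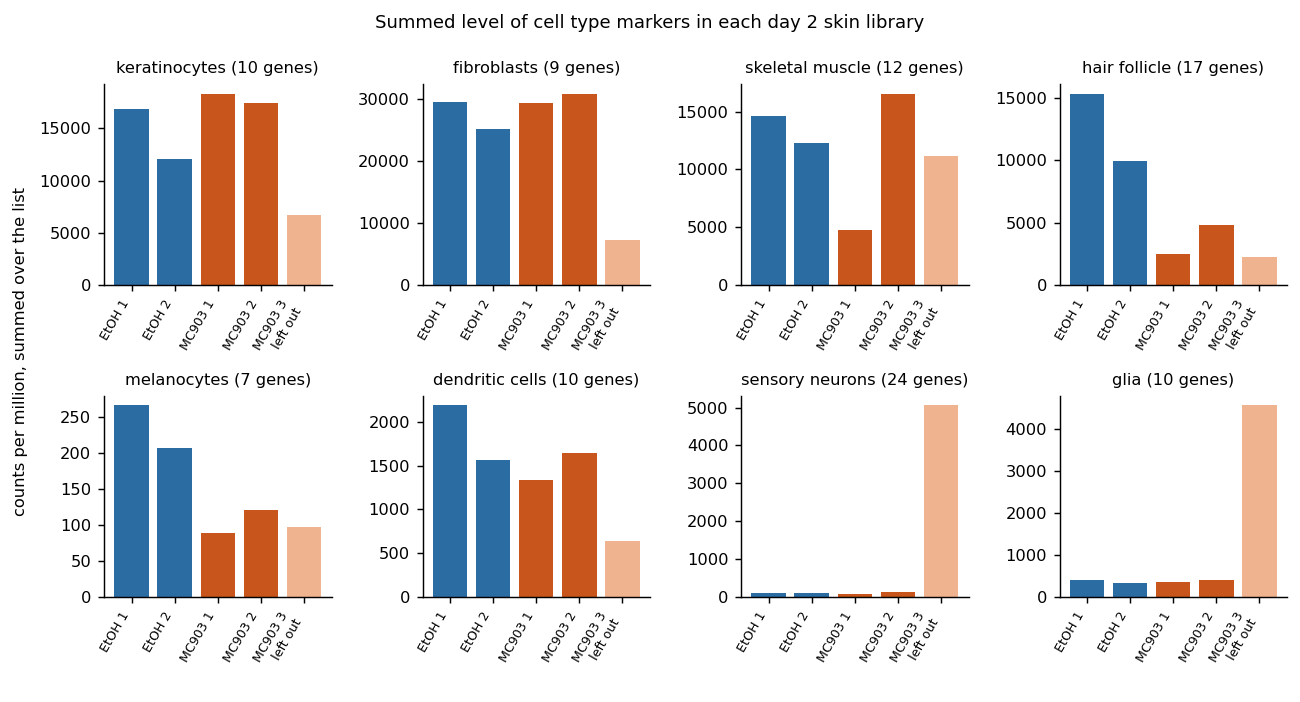
Summed cpm (vertical axis, linear from 0) of 8 lists of cell type markers, with a bar for each of the 5 day 2 skin libraries. The left-out MC903 library (pale bar) stands apart in sensory neuron and glia markers at 5059.4 and 4555.3 cpm, hair follicle and melanocyte markers are lower in both MC903 libraries than in both ethanol libraries, and muscle markers are lowest in MC903 replicate 1.

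With 2 libraries a group, 60 of 23361 genes tested (0.257%) passed an adjusted p of 0.05 (edgeR quasi-likelihood test, Benjamini-Hochberg), 57 of them higher with MC903 (0.244% of genes tested) and 3 lower (0.0128%). The 57 higher genes spanned log2 fold changes of 2.11 to 8.29, with a median of 4.20, and in all 60 the libraries of the groups did not overlap. An exact permutation test of 2 against 2 libraries cannot give a two-sided p under 0.333, so size and overlap are given beside the adjusted p. Libraries that do not overlap were common: both MC903 libraries were above both ethanol libraries in 20.7% of genes and below them in 21.8%. With a 2-fold or larger difference between the means as well, the shares were 5.13% higher (1199 genes) and 6.86% lower (1602 genes). Counts of list members that meet both conditions, given below, are to be read against these shares. The median log2 fold change of all genes tested was -0.02. Without adjustment, 2032 genes (8.70%) had a p under 0.05.

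The library left out for its ganglion RNA was above both ethanol libraries in 56 of the 57 higher genes (98.2%), against 48.1% of all genes tested, and below both in the 3 lower genes, against 32.8% of all. With that library in the fit, no gene passed the edgeR adjusted p (1191 had an unadjusted p under 0.05), and with the mean level of the neuron list as a further term, 78 genes passed, among them all 60. Calls also depended on the other libraries: of the 60 genes, 35 passed without ethanol replicate 1, 34 without ethanol replicate 2, 55 without MC903 replicate 1 and 60 without MC903 replicate 2, when 49, 43, 102 and 3207 genes passed in all. All 60 kept their direction in each of these fits. Since the groups did not overlap in any of the 60, leaving out 1 library could hardly reverse them.

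**Figure D2:**
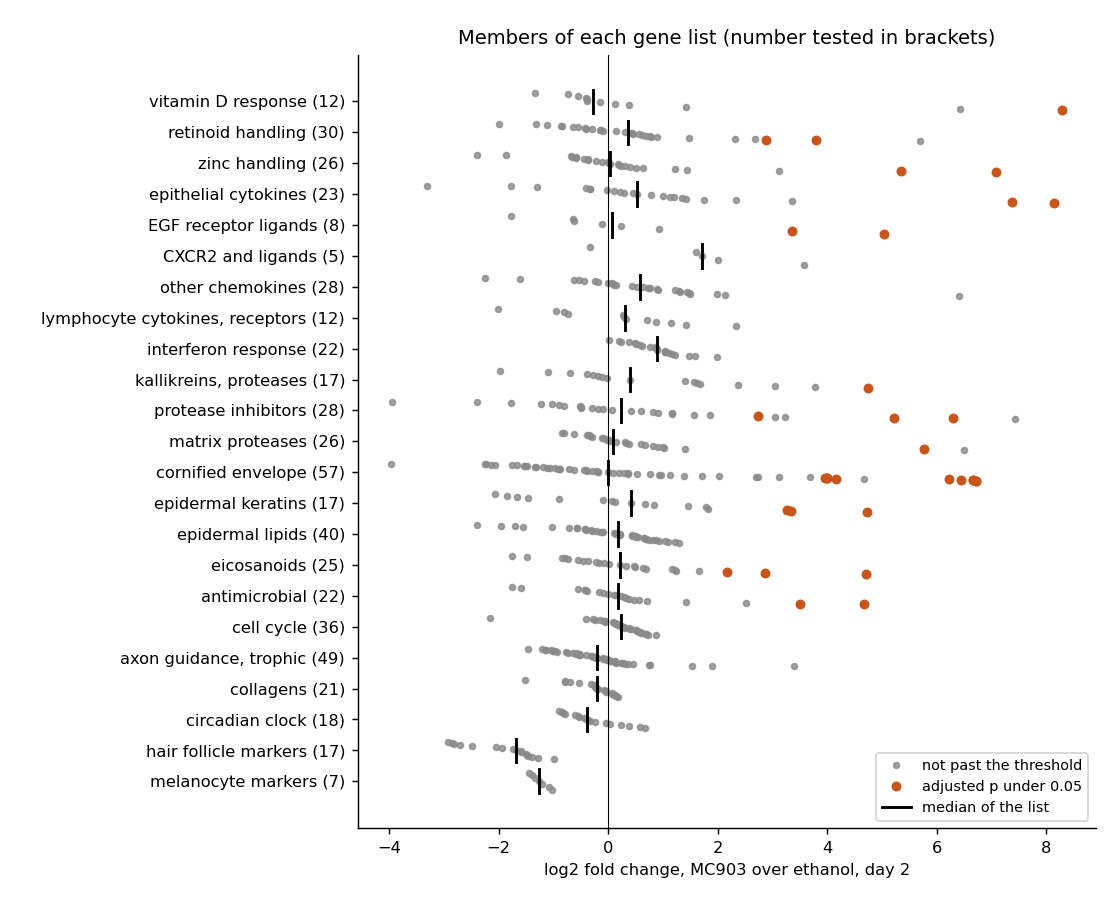
Log2 fold change of MC903 over ethanol (horizontal axis) for each tested member of 23 gene and marker lists (rows, number tested in brackets), with genes past an adjusted p of 0.05 in orange and a black bar at the median of each list. The orange points all lie at the right, in 12 of the lists, while hair follicle and melanocyte markers lie wholly to the left of 0 with no member past the threshold.

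The vitamin D feedback gene had the largest log2 fold change of the 57. Cyp24a1, the enzyme that breaks down active vitamin D and that its receptor switches on as feedback, had 5.83 and 24.4 cpm in the ethanol libraries and 5405.5 and 4093 cpm in the MC903 libraries. It rose by a log2 fold change of 8.29 ± 0.908 (SE; edgeR adjusted p = 0.0400), and the left-out library had 67642 counts against 172 and 643 in ethanol skin. The gene (ENSMUSG00000038567) lies on chr2:170482708-170497145 of GRCm38. S100g, a calcium-binding protein that vitamin D induces in the intestine, went from 0 and 1 counts to 49 and 50 counts, at least 18-fold higher over a floor of 3 counts a library, with an edgeR adjusted p of 0.0756. Of 12 vitamin D genes tested, 1 passed the test, 3 were 2-fold higher without overlap and 1 was lower, with a median log2 fold change of -0.27. The lower member was Cyp27b1, the enzyme that makes active vitamin D, at 3.08 and 2.55 cpm against 0.641 and 1.58 cpm.

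Genes that handle vitamin A moved as well. Lrat, which esterifies retinol for storage, had 15.7 and 11.9 cpm in ethanol skin and 238.9 and 143.8 cpm in MC903 skin, a log2 fold change of 3.8 ± 0.363 (edgeR adjusted p = 0.0252). Crabp2, which carries retinoic acid to the nucleus, had 41.1 and 34.4 cpm against 240.1 and 319.6 cpm and rose by 2.89 on the log2 scale (edgeR adjusted p = 0.0282). Rbp2, a retinol-binding protein that was not on the list, had 2.44 and 3.04 cpm against 34.2 and 40.2 cpm (3.76 on the log2 scale, edgeR adjusted p = 0.0119). In each of these the lower MC903 library was several times the higher ethanol library. The retinoic acid-degrading enzymes stood higher without passing the test, Cyp26a1 at 0.170 and 0 cpm against 5.22 and 4.41 cpm (edgeR adjusted p = 0.1218) and Cyp26b1 at 67.9 and 48.8 cpm against 283.8 and 298.4 cpm (0.0577). Stra6, the retinol importer, stood lower at 11.8 and 16.2 cpm against 2.99 and 3.98 cpm (edgeR adjusted p = 0.169). Over the 30 retinoid genes tested, 2 rose, none fell, 6 were 2-fold higher without overlap and 3 lower, and the median was 0.37.

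Slc39a4, the zinc importer ZIP4 whose loss in people causes the skin disease acrodermatitis enteropathica, was at 0.983 and 1.94 cpm in ethanol skin and at 139.4 and 257.6 cpm in MC903 skin. Its log2 fold change of 7.09 ± 0.548 (edgeR adjusted p = 0.0114) came with no overlap, and the left-out library had 2439 counts against 29 and 51 in ethanol skin. Slc30a10, known mainly as a manganese exporter, went from 2 and 1 counts to 56 and 65 counts, at least 21.9-fold higher (edgeR adjusted p = 0.0447). Over the 26 zinc transporters and metallothioneins tested the median was 0.03, with 5 members higher and 2 lower by 2-fold without overlap.

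Among epithelial cytokines, 2 of 23 genes tested rose. Tslp, the keratinocyte cytokine that acts on dendritic cells, basophils and sensory neurons, had 1.93 and 3.54 cpm in the ethanol libraries and 556.4 and 354.2 cpm in the MC903 libraries, a log2 fold change of 7.38 ± 0.521 (edgeR adjusted p = 0.0100). The left-out library gave 17867 counts, above both MC903 libraries kept, at 13015 and 9883 counts. Il24, a member of the IL-20 family that acts on keratinocytes, had 0 and 2 counts in ethanol skin and 374 and 201 counts in MC903 skin, at least 107.5-fold higher (edgeR adjusted p = 0.0444). Both genes went from at most 93 counts in an ethanol library to at least 201 in an MC903 library. Il33, an alarmin stored in keratinocyte nuclei, was at 29.4 and 24.9 cpm against 47.7 and 60.6 cpm, without overlap but short of the test (log2 fold change 1.0, edgeR adjusted p = 0.303). On the lower side Il1f6, which encodes IL-36α, had 47 and 43 counts against 6 and 2 counts (edgeR adjusted p = 0.240). In all, 9 of the 23 were 2-fold higher without overlap and 3 lower, with a median of 0.53.

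The ligands of the epidermal growth factor (EGF) receptor, which drives keratinocyte growth and repair, split. Epgn (epigen) had 5.49 and 5.78 cpm in ethanol skin and 221.4 and 149.1 cpm in MC903 skin, a log2 fold change of 5.04 ± 0.326 (edgeR adjusted p = 0.00856). Areg (amphiregulin), its neighbor on chromosome 5, had 6.03 and 4.94 cpm against 61.1 and 51.4 cpm, a log2 fold change of 3.35 ± 0.267 (edgeR adjusted p = 0.0119). Btc (betacellulin) stood the other way, at 25.2 and 27.6 cpm against 6.80 and 8.64 cpm, without overlap and without passing the test (log2 fold change -1.77, edgeR adjusted p = 0.130). Hbegf differed by less than 2-fold, at 6.78 and 6.27 cpm against 13.5 and 11.4 cpm. So 2 of 8 ligands rose, and the median of the 8 was 0.07.

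**Figure D3:**
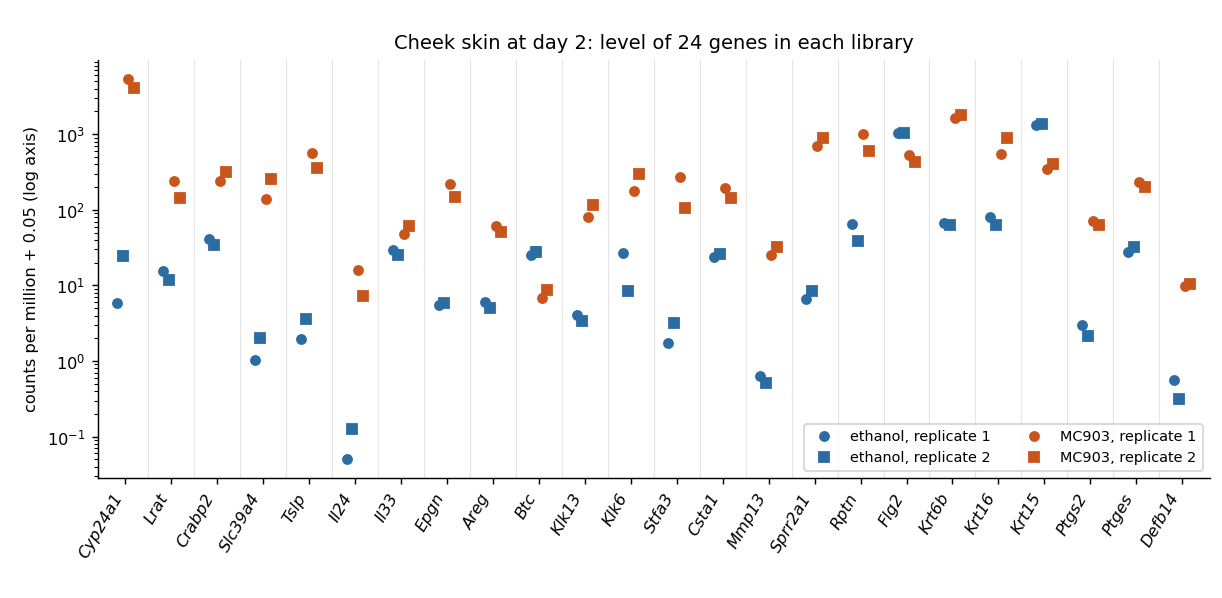
Level of 24 genes in each of the 4 day 2 libraries as cpm plus 0.05 (vertical axis, log scale), with ethanol in blue, MC903 in orange, circles for replicate 1 and squares for replicate 2. Cyp24a1, Slc39a4, Tslp, Il24, Epgn, Mmp13 and Sprr2a1 sit more than an order of magnitude higher in both MC903 libraries, Btc, Flg2 and Krt15 sit lower, and replicates lie close together for most genes.

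No gene on the lists of chemokines and their receptors passed the test. Of the 5 tested genes among the CXCR2 ligands and their receptors, 4 were 2-fold higher without overlap, with a median of 1.72. Cxcr2 itself, the receptor on neutrophils, had 158 and 161 counts against 572 and 371 counts (log2 fold change 1.72, edgeR adjusted p = 0.269). The ligands were rare: Cxcl5 had 2 and 0 counts against 13 and 11 counts, at least 4.40-fold higher, Cxcl3 had 4 and 4 counts against 15 and 15, and Cxcl2 was too rare to test. These were handfuls of reads in each library. Of 28 other chemokines 15 overlapped between the groups, 7 were 2-fold higher without overlap and 1 lower, with a median of 0.58. The monocyte-attracting Ccl7 was at 13.5 and 8.74 cpm against 56 and 32.1 cpm. Ccl17, which draws type 2 helper T cells, had no counts in either ethanol library and 10 in each MC903 library, at least 3.64-fold higher. Ccl27a, which draws T cells to resting skin, was the lower member at 23.7 and 23.6 cpm against 3.08 and 6.81 cpm (log2 fold change -2.25, edgeR adjusted p = 0.198).

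The cytokines of lymphocytes were mostly silent at day 2. Il17a, Il22, Il3, Il31 and Il9 had no count in any of the 4 libraries, and 9 of the 21 genes on that list could not be tested. Receptors were present, and Il4ra, the shared receptor chain for IL-4 and IL-13, was at 27.6 and 23.4 cpm against 57.1 and 55.7 cpm (log2 fold change 1.15, edgeR adjusted p = 0.214). The dampening cytokine Il10 had 16 and 17 counts against 69 and 85 counts (edgeR adjusted p = 0.172). None of the 12 tested genes on the list passed. Marker lists of immune cells had no common direction. Macrophage markers summed to 815.9 and 668.7 cpm against 921.0 and 847.8 cpm, slightly higher without overlap, and eosinophil markers to 25.2 and 16.8 cpm against 13.05 and 12.6 cpm, lower without overlap, with 1 to 3 of the 6 at or under 3 counts in each library. The lists of T cells, B cells, neutrophils, mast cells, basophils and dendritic cells overlapped between groups, with T cell markers at 36.9 and 24.4 against 35.4 and 27.7 cpm, and neutrophil markers at 47.2 and 155.5 against 76.6 and 80.3 cpm. Langerhans and other dendritic cell markers summed to 2190 and 1569.5 against 1331.6 and 1640.5 cpm. Single markers of rare cells had counts only in the MC903 libraries of the 4. Mcpt8, a basophil protease, went from 0 and 0 counts to 18 and 35 counts (at least 9.38-fold). Mmp8, the neutrophil collagenase, went from 0 and 0 to 13 and 8 counts (at least 3.91-fold), and neither passed the test. Their lists did not follow. Of 3 basophil markers tested, 2 overlapped between groups (median 0.14). Of 11 neutrophil markers tested, 4 overlapped, 5 were higher and 2 lower without overlap (median 0.15).

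Interferon-induced genes were mostly placed one way. In 19 of 22 both MC903 libraries were above both ethanol libraries, against 20.7% of all genes tested, and none had both below. The 9 that were also 2-fold higher included the ubiquitin-like modifier Isg15, at 3.42 and 3.31 cpm against 18.6 and 8.14 cpm, and the RNA sensor Oas3, at 2.30 and 2.13 cpm against 7.65 and 5.63 cpm. The guanylate-binding protein Gbp2 was at 34.5 and 36.5 cpm against 86.6 and 59.2 cpm. No member passed the edgeR test, the median log2 fold change was 0.88, and MC903 replicate 1 was the higher MC903 library in these examples. In the left-out library Isg15 had 366 counts against 101 and 87 counts in ethanol skin, while Oas3 and Gbp2 had 58 and 702 counts against 68 and 56 and against 1018 and 960 counts.

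Kallikreins are serine proteases that cut the junctions between cornified cells and can activate protease receptors on keratinocytes and nerves. Klk13 was the member that passed, with 3.97 and 3.34 cpm in ethanol skin and 79.5 and 117.2 cpm in MC903 skin, a log2 fold change of 4.75 ± 0.319 (edgeR adjusted p = 0.00922). Klk6 was higher in level but uneven in ethanol skin, at 26.6 and 8.40 cpm against 178.8 and 299.9 cpm (log2 fold change 3.77, edgeR adjusted p = 0.142). Klk9, at 11.3 and 10.2 cpm against 41.2 and 70.3 cpm, and Klk12, at 1.80 and 0.912 cpm against 5.26 and 17.2 cpm, also stood higher without overlap. Of 17 genes tested 7 were 2-fold higher without overlap and 1 lower, the membrane protease Prss8 (log2 fold change -1.10). Klk5, which activates other kallikreins, had a log2 fold change of -0.39.

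The protease inhibitors were led by stefins, cysteine protease inhibitors whose genes lie together on chromosome 16. Stfa3 had 1.66 and 3.12 cpm against 270.5 and 105.6 cpm (log2 fold change 6.30 ± 0.632, edgeR adjusted p = 0.0277). Stfa2 rose by 5.22 on the log2 scale from 0.746 and 0.722 cpm to 37.8 and 17.4 cpm (edgeR adjusted p = 0.0253), and Csta1 by 2.75 from 24 and 25.7 cpm to 192.3 and 141.4 cpm (0.0267). Stfa1, at 23 and 61 counts against 9826 and 3180 counts, fell short of the test (log2 fold change 7.43, edgeR adjusted p = 0.0567). In all 4, MC903 replicate 1 was above replicate 2, and both were above both ethanol libraries. These genes are close copies, so reads may have been shared among them. Of 28 inhibitors 3 rose, 10 were 2-fold higher without overlap and 3 lower, among the latter Cst6, which restrains proteases of the cornified layer, at 987.5 and 576.0 cpm against 140.4 and 318.3 cpm. Among 26 matrix proteases and their inhibitors, Mmp13, a collagenase of wounds and bone, rose from 0.576 and 0.456 cpm to 25 and 32.2 cpm (log2 fold change 5.78 ± 0.371, edgeR adjusted p = 0.00856), and 5 were 2-fold higher without overlap.

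The largest group of risen genes encodes parts of the cornified envelope, the protein shell of the dead outer cells. Of 57 such genes tested 10 rose, and the list as a whole had no direction, with a median of 0.00, 18 members 2-fold higher and 15 lower without overlap. The 10 were 7 small proline-rich genes, Lce3f, Rptn and Cdhr1, the last a cadherin known from photoreceptors rather than a part of the envelope. Sprr2a1 had 6.51 and 8.40 cpm in ethanol skin and 693.0 and 880.4 cpm in MC903 skin, a log2 fold change of 6.72 ± 0.406 (edgeR adjusted p = 0.00856). Sprr2a2 gave nearly the same values, 6.54 and 8.97 cpm against 695.9 and 881.3 cpm, and its annotation (chr3:92215920-92256724) overlaps that of Sprr2a1 (chr3:92215799-92221911). Sprr2a3 was lower, at 2.47 and 3.04 cpm against 310.2 and 251.5 cpm, with a like log2 fold change of 6.67.

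The 3 Sprr2a copies share their upstream sequence. Reads may have been shared among them too, which was not tested, so their values may not be separate measurements. In the RefSeq promoter table (GRCm38.p6) the 300 bases around the starts of Sprr2a1 and Sprr2a2 were identical, and the 272 bases that could be aligned between Sprr2a1 and Sprr2a3 matched at all 272. The stretch upstream of the start that all 3 hold, 222 bases at chr3:92215585-92215806 for Sprr2a1, chr3:92250397-92250618 for Sprr2a2 and chr3:92285082-92285303 for Sprr2a3, is shown here on its plus strand because it is the same letter for letter in each.
Sprr2a1, Sprr2a2 and Sprr2a3: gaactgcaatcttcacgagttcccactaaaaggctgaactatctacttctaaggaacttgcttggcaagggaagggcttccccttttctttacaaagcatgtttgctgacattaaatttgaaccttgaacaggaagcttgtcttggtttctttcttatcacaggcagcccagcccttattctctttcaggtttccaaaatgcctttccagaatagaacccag

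Rptn (repetin), a large envelope precursor, reached the highest level of the risen envelope genes outside the Sprr2a copies, at 64.9 and 38.7 cpm against 1021.6 and 592.0 cpm (log2 fold change 3.96, edgeR adjusted p = 0.0489). Sprr1b rose by 3.99, Sprr2b by 6.45, Sprr2g by 6.22, Sprr2h by 4.17 and Lce3f by 4.01 on the log2 scale. The 15 members that were 2-fold lower without overlap, none of them past the test, included Flg2 and Lor. Flg2 (filaggrin-2) was at 1052 and 1025 cpm against 538.2 and 423.3 cpm (log2 fold change -1.11, edgeR adjusted p = 0.409), and Lor (loricrin), the chief envelope protein, at 224.0 and 283.9 cpm against 82.9 and 140.3 cpm (-1.19). Late cornified envelope genes of the first cluster were also lower without overlap, Lce1m with a log2 fold change of -2.13, Lce1h of -2.24, Lce1k of -1.54 and Lce1l of -1.52.

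Among 17 epidermal keratins 3 rose, all of them keratins of stressed epidermis. Krt6b, made in wounded and hyperproliferating epidermis, was at 66.8 and 63.7 cpm in ethanol skin and at 1662 and 1785 cpm in MC903 skin (log2 fold change 4.72 ± 0.366, edgeR adjusted p = 0.0114). Krt6a went from 204.7 and 179.2 cpm to 1946 and 1760.5 cpm (3.27, edgeR adjusted p = 0.0363), and their partner Krt16 from 80.4 and 62.1 cpm to 554.4 and 885.9 cpm (3.34, edgeR adjusted p = 0.0474). Krt6a and Krt6b are close copies on chromosome 15, so the split of reads between them is uncertain. The keratins of resting epidermis did not pass: Krt5 and Krt10 had log2 fold changes of 0.07 and 0.12, Krt14 stood at 1379 and 1062 cpm against 2819 and 3910.5 cpm, and Krt15, a keratin of basal and hair follicle stem cells, at 1343.5 and 1346 cpm against 348.5 and 403.3 cpm (log2 fold change -1.84, edgeR adjusted p = 0.170). Of the 17, 6 were 2-fold higher and 2 lower without overlap.

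Promoters were searched for the AP-1 motif because AP-1 factors, dimers of Fos and Jun proteins, are known regulators of small proline-rich genes. Of the 57 higher genes, 37 had an entry in the promoter table. TGANTCA, searched on both strands in the 250 bases before the start, was found in 5 of the 37 (13.5%), against 5.26% of the 14037 promoters of genes tested and 6.87% of all 27025. Among the 5, Sprr1b, Sprr2b and Sprr2h are related genes of one cluster on chromosome 3. Their promoters are thus not separate draws, and the shares cannot be compared as if they were. The 5 matches are shown 5′ to 3′ on the strand of the gene, in windows of 41 bases, with the motif in capitals. They begin 35 bases before the start in Mmp13, 96 in Rptn, 111 in Sprr1b, 195 in Sprr2b and 198 in Sprr2h.
Mmp13, chr9:7272462-7272502 (+ strand): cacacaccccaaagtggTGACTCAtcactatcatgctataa
Rptn, chr3:93393586-93393626 (+ strand): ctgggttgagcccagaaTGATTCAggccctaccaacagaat
Sprr1b, chr3:92438867-92438907 (- strand): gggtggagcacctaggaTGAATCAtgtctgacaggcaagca
Sprr2b, chr3:92316493-92316533 (+ strand): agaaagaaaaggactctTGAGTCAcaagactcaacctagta
Sprr2h, chr3:92385470-92385510 (+ strand): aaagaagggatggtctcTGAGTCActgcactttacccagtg

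Other motifs were searched the same way. TATAAA was found in 12 of the 37 (32.4%) against 8.56% of promoters of genes tested, and its letters cannot overlap those of the AP-1 motif. TTGCNNAA, bound by C/EBP factors, was found in 4 (10.8%) against 8.43% and an NF-κB motif in 1 (2.70%) against 1.91%. The direct repeat bound by the vitamin D receptor, taken as GGTCA or GTTCA followed after 4 bases by either again, was found in 0 of the 37 against 0.121%. Cyp24a1 and Slc39a4 had no entry. A match in so few promoters, some of them of related genes, describes the letters only. Fosl1, an AP-1 subunit, was at 1.66 and 0.874 cpm against 3.89 and 4.34 cpm (log2 fold change 1.69), and Fos at 25.1 and 11.6 against 77.2 and 37.2 cpm (1.64). These were the 2 of 25 immediate early and stress genes that were 2-fold higher without overlap, and neither passed the test (edgeR adjusted p = 0.348 and 0.422).

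Genes for 3 steps of prostaglandin synthesis rose together. Pla2g4f, a phospholipase that frees arachidonic acid from membranes, was at 23.7 and 24 cpm against 100.0 and 114.6 cpm (log2 fold change 2.17 ± 0.230, edgeR adjusted p = 0.0347). Ptgs2 (COX-2), which turns arachidonic acid into the prostaglandin precursor, had 2.98 and 2.09 cpm against 71 and 63.1 cpm (4.72 ± 0.304, edgeR adjusted p = 0.00856). Ptges, which makes prostaglandin E2 from it, had 27.5 and 31.9 cpm against 234.4 and 198.2 cpm (2.86 ± 0.265, edgeR adjusted p = 0.0230). The replicates of each group were within 1.5-fold of each other in all 3. Of 25 genes of prostaglandin and leukotriene synthesis and reception, 7 were 2-fold higher without overlap and 2 lower, with a median of 0.21. Barrier lipid genes had no member past the test among 40, with 4 higher and 5 lower. The strongest of the lower ones was Alox12e, an epidermal lipoxygenase, at 138.5 and 106.4 cpm against 18.9 and 27.7 cpm (log2 fold change -2.39, edgeR adjusted p = 0.0580).

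Antimicrobial genes had 2 risen members of 22. Defb14, a β-defensin, went from 0.508 and 0.266 cpm to 9.92 and 10.3 cpm (log2 fold change 4.68, edgeR adjusted p = 0.0263), and Chil1, a chitinase-like protein, from 2.61 and 2.59 cpm to 31.5 and 27.7 cpm (3.51, edgeR adjusted p = 0.0137). S100a8, a subunit of calprotectin, had a log2 fold change of 0.72, and S100a7a (psoriasin) stood lower at 29.1 and 18.2 cpm against 5.13 and 10.6 cpm. Cell cycle genes were near the rest of the genome, with no member of 36 changed by 2-fold without overlap and a median of 0.24. The 21 collagen genes had a median of -0.20 and 18 circadian clock genes of -0.38. In 11 of the latter both MC903 libraries were below both ethanol libraries, against 21.8% of all genes tested, and none of the 11 differed by 2-fold. No member of these 3 lists passed.

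Of 49 genes for axon guidance and nerve growth tested at day 2, none passed the test, and their median was -0.20. Of the 49, 3 (6.12%) were 2-fold higher without overlap and 6 (12.2%) lower, against 5.13% and 6.86% of all genes tested. The share higher was thus near that of all genes, and the share lower, resting on 6 genes, was above it. The genes named next, Artn and Sema3e, are both from the higher side. Artn (artemin), a growth factor for sensory neurons, had 9 and 1 counts in ethanol skin and 50 and 46 counts in MC903 skin (log2 fold change 3.4, edgeR adjusted p = 0.285). Sema3e, a guidance cue, was at 65.3 and 52.5 cpm against 211.3 and 131.3 cpm (1.54, edgeR adjusted p = 0.238). Both were also above the ethanol libraries in the left-out library, with 30 and 3257 counts against 9 and 1 and against 1925 and 1382 counts.

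Hair genes stood lower as a group. All 17 markers of the hair follicle and shaft were lower in both MC903 libraries than in both ethanol libraries, 16 of them by 2-fold, against 6.86% of genes tested that met both conditions. Summed, they gave 15312.1 and 9905 cpm in ethanol skin and 2467 and 4831 cpm in MC903 skin, and 2254 cpm in the left-out library. None passed the test singly, and the median was -1.68. The keratin-associated proteins, which fill the hair shaft, were named after their values were seen: all 58 tested were 2-fold lower without overlap, with a median log2 fold change of -2.89 and sums of 10861 and 6629 cpm against 298.6 and 1651 cpm. In the left-out library this family summed to 3159 cpm, above both MC903 libraries kept and below both ethanol libraries. That library held less skin RNA, with keratinocyte markers at 6726 cpm against 12089 to 18318 cpm. Its hair sums are thus low in part for that reason. The 3 genes that fell past the threshold were Krtap20-2 and the predicted genes Gm10061 and Gm6358, counted with this family for their place in its cluster on chromosome 16 (chr16:89140851-89206394). Krtap20-2 had 229 and 171 counts against 1 and 1, at least 60.5-fold lower (edgeR adjusted p = 0.0104), Gm10061 had 244 and 138 against 0 and 1, at least 57.3-fold lower (0.0238), and Gm6358 had 100 and 92 against 1 and 0, at least 29.2-fold lower (0.0413). All 21 hair keratins were 2-fold lower as well, with a median of -1.93, and 7 of 7 melanocyte markers, which in mouse skin belong largely to the hair bulb, summed to 266.1 and 207.1 cpm against 88.1 and 120.8 cpm.

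Hair is made in cycles, and the hair level was not steady in ethanol skin. Over the ethanol libraries, the same 17 markers spanned 17284 to 40745 cpm at 6 hours (n = 4), 1100.0 to 15450 cpm on day 5 (n = 3) and 19364 to 79187 cpm on day 8 (n = 6). Under MC903 they spanned 31309 to 52424 cpm at 6 hours (n = 4), 6714 to 26727 cpm at day 5 (n = 3) and 3838 to 25979 cpm at day 8 (n = 5). The direction thus varied: the median of the keratin-associated family was 0.69 at 6 hours and -2.89, 2.15 and -2.09 on days 2, 5 and 8. The part of the hair cycle in the day 2 difference was not tested.

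**Figure D4:**
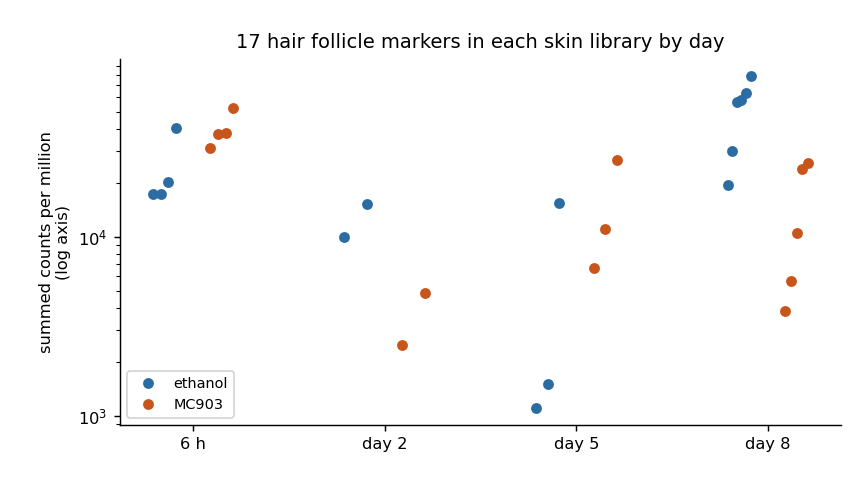
Summed cpm for 17 hair follicle markers (vertical axis, log scale) in each skin library by time (6 hours and 3 days, equally spaced), ethanol in blue and MC903 in orange. At day 2 both MC903 libraries lie below both ethanol libraries, at 6 hours the MC903 libraries lie mostly above, and at day 5 the ethanol libraries alone span 1100.0 to 15450 cpm.

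The other risen genes were not on any list. Akr1d1, a steroid 5β-reductase best known from the liver, had 2 and 14 counts in ethanol skin and 1951 and 2055 counts in MC903 skin (log2 fold change 8.05 ± 0.713, edgeR adjusted p = 0.0184). Gsdmc and Gsdmc4, of the gasdermin C family of pore-forming proteins, had 26 and 37 against 2395 and 1611 counts and 1 and 1 against 43 and 51 counts. Ptprz1, a receptor phosphatase, had 274 and 274 against 8653 and 6360 counts, and Spp1 (osteopontin) was at 2.98 and 4.33 against 55.7 and 63.4 cpm. The arginine transporter Slc7a3 had 17 and 23 against 748 and 803 counts, the serpin Serpina9 104 and 88 against 1466 and 1787 counts, and the thioesterase Acot11 was at 4.07 and 5.02 against 75.1 and 58.2 cpm. In each of these both MC903 libraries were far above both ethanol libraries, and the replicates differed most in Akr1d1 in ethanol skin. The remainder included the carboxylesterases Ces2f and Ces2g, the cell cycle repressor E2f7 (355 and 267 against 1651 and 1630 counts) and the pseudogene Gm11597, which shared the smallest edgeR adjusted p (0.00848) with Sprr2a3 and had 86 and 75 against 2625 and 3161 counts. Pseudogenes can share reads with the genes they copy.

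The place of day 2 in the course of the treatment was read from a fit of all uninjected wild-type skin libraries from 6 hours to day 8, each time against its own ethanol libraries. In that fit of 29 libraries, which also tested more genes, 603 genes were called higher at day 2 (2.13% of 28335 genes) and 282 lower (0.995%). The 57 genes that rose at day 2 had a median log2 fold change of 4.19 at day 2, against 1.35 at 6 hours, 5.85 at day 5 and 4.05 by day 8. At 6 hours 54 of them were positive and 29 passed, and at day 5 and at day 8 56 were positive and 56 passed. The MC903 effect was compared between times as a signed log2 fold change, by a test of the difference. At day 2 it was above that at 6 hours in 241 genes (0.851%) and below it in 111 (0.392%). It was below that at day 5 in 566 (2.0%) and above it in 284 (1.0%). Against day 8 it was below in 318 (1.12%) and above in 203 (0.716%). A gene that MC903 lowered further at a later time thus counts as above at day 2. Both directions together, these made 1.24% of genes against 6 hours, 3.0% against day 5 and 1.84% against day 8. They rested on single day 2 libraries, and became 10.2%, 11.2% and 11.1% without MC903 replicate 2, 0.347%, 0.807% and 0.534% without ethanol replicate 1, 0.219%, 1.77% and 0.740% without ethanol replicate 2, and 0.226%, 0.824% and 0.428% without MC903 replicate 1.

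Among the genes with a larger effect at day 2 than at 6 hours, Tslp had the smallest p. At 6 hours its range was 0.782 to 1.64 cpm in ethanol and 0.975 to 2.06 cpm in MC903 skin (n = 4 each), and the MC903 effect at day 2 was larger by 6.86 ± 0.689 on the log2 scale (edgeR adjusted p = 1.293e-05). Rbp2 went the same way, from 2.13 to 5.80 cpm in ethanol and 1.45 to 3.67 cpm in MC903 skin at 6 hours, a difference of effects of 4.43 (edgeR adjusted p = 1.293e-05). Ces2g, a carboxylesterase, had 11.8 to 21.1 cpm in ethanol and 13 to 20.1 cpm in MC903 skin at 6 hours and 22.4 and 23.6 against 177.8 and 186.2 cpm at day 2, a difference of 2.95. In all 3 the groups overlapped at 6 hours and stood apart at day 2. Cyp24a1 was different, since its log2 fold change was already 8.40 at 6 hours and then 8.29 on day 2, 9.60 on day 5 and 7.21 on day 8.

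A small set of genes had the highest or lowest signed effect at day 2. By a rule set after the data were seen, the effect at day 2 had to pass the test of difference against each of the other times in one direction, and 9 of 28335 genes (0.0318%) were higher at day 2 and 4 (0.0141%) lower. Slc39a4 reached 140.4 and 258.3 cpm under MC903 at day 2, against 41.6 to 53.8 cpm at 6 hours, 9.20 to 10.9 cpm at day 5 and 2.07 to 6.20 cpm at day 8. Its effect at day 2 was larger than at 6 hours by 1.74 on the log2 scale, just past the threshold (edgeR adjusted p = 0.0490). At day 8 its effect was smaller than at day 2 by 5.26 ± 0.442 (edgeR adjusted p = 1.823e-07). Serpinb9b, of a family of protease inhibitors that block granzymes, had 11.7 and 20.1 cpm under MC903 at day 2 and at most 1.43 cpm under MC903 at every other time. It was the exception among the 57 risen genes, with log2 fold changes of -1.15 at day 5 and -0.47 at day 8. Wnt16, a secreted Wnt ligand, had 17.1 and 12 cpm under MC903 at day 2, 2.91 to 4.72 cpm at 6 hours and at most 1.99 cpm later, though its own day 2 test missed the threshold (log2 fold change 2.84, edgeR adjusted p = 0.0829). The others were Ces2f and, short of the day 2 test itself (edgeR adjusted p from 0.142 to 0.632), Adgrg6, Csnk2a2, Rybp, its pseudogene Rybp-ps and Pck1. Pck1, a gluconeogenic enzyme, had 542 and 285 counts against 1867 and 1454 counts. In the left-out library Pck1 and Csnk2a2 were below both ethanol libraries, Pck1 at 278 counts and Csnk2a2 at 1204 against 2182 and 1869 counts. Rybp-ps lay between the ethanol libraries there, at 287 against 308 and 214 counts. On the lower side were Vps51, Smpd3, Sprr4 and Trnp1, none past the day 2 test (edgeR adjusted p from 0.181 to 0.596). Sprr4 had 137 and 40 counts in ethanol skin and 4 and 6 counts in MC903 skin. In the left-out library Trnp1 was above both ethanol libraries, with 2521 against 213 and 218 counts, and Vps51 lay between them.

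Of the 57 cornified envelope genes, the signed MC903 effect was larger at day 5 than at day 2 in 28 and smaller in 2, against 2.0% and 1.0% of all genes. At day 8 it was larger in 16 and smaller in 3, against 1.12% and 0.716%. The number larger at day 5 was 19 without ethanol replicate 1 and 18 without MC903 replicate 1, and the number larger at day 8 was 9 when each of these was left out in turn, and 9 without the day 8 libraries whose titles carry brackets. Lce1k, lower in both MC903 libraries at day 2 (1.94 and 2.41 cpm against 4.42 and 8.41 cpm), stood at 54 to 80.1 cpm under MC903 and 4.19 to 6.80 cpm under ethanol at day 5, and the effect at day 5 was larger by 5.06 ± 0.357 on the log2 scale (edgeR adjusted p = 9.032e-09). The effect on Lce1g was larger by 4.75 at day 5 and that on Lce1h by 4.29 at day 8. Krt77, an epidermal keratin, was at 741.3 and 1016 cpm under MC903 against 1496 and 1749 cpm under ethanol at day 2. It was lowered further at day 5, to 16 to 69.9 cpm under MC903 against 1454 to 2703.5 cpm under ethanol. Its signed log2 effect at day 5 was 4.95 below that at day 2 (edgeR adjusted p = 7.489e-06). Il33 was at an intermediate stage, with a log2 fold change of -0.92 at 6 hours and of 0.99, 2.79 and 3.58 on days 2, 5 and 8, and each of the differences from day 2 passed the test (edgeR adjusted p = 0.0216, 0.0225 and 0.000701).

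**Figure D5:**
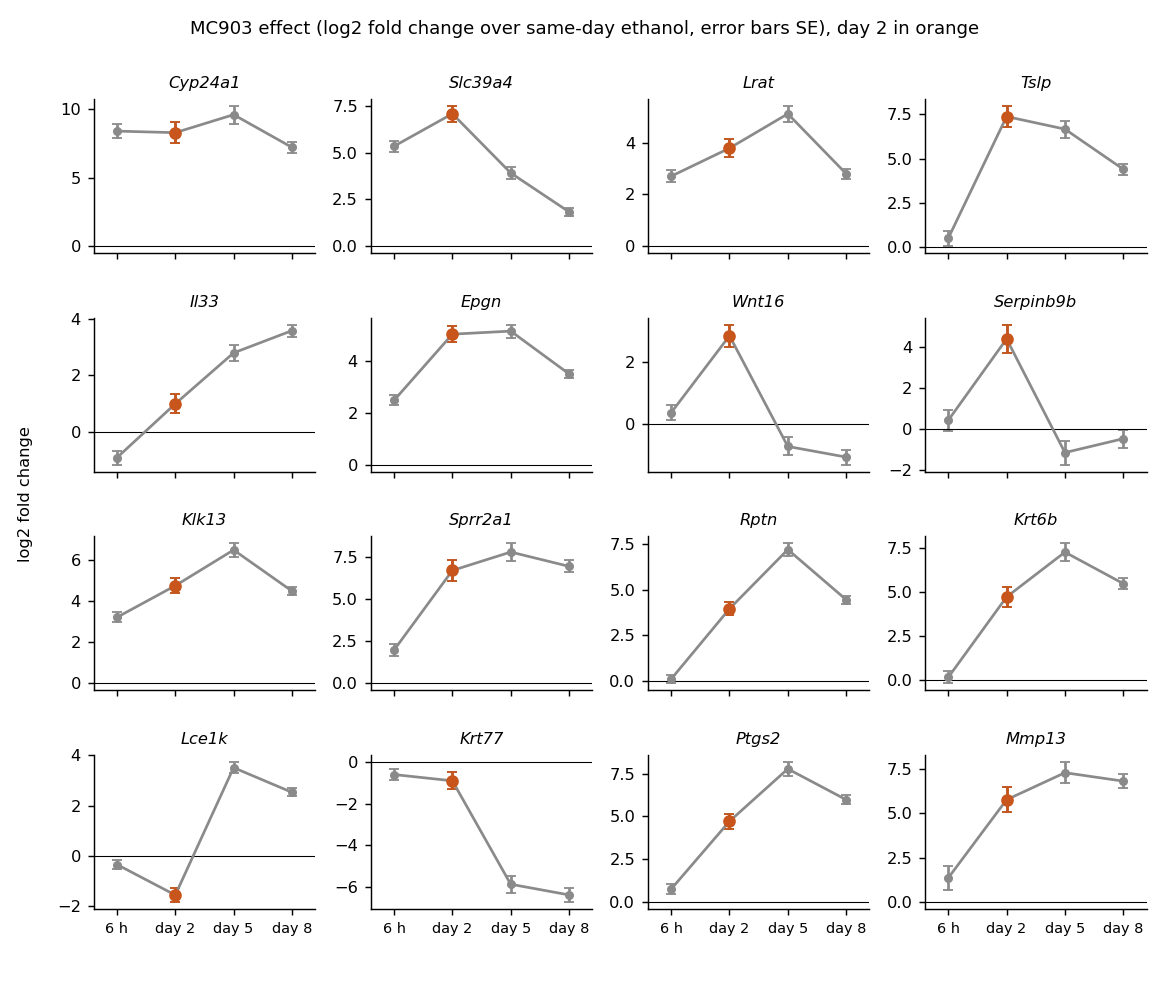
Log2 fold change of MC903 over same-day ethanol (vertical axis, a scale for each gene, error bars SE) for 16 genes at 6 hours, day 2 (orange), day 5 and day 8, equally spaced on the horizontal axis. Cyp24a1 is high from 6 hours on, Slc39a4, Wnt16 and Serpinb9b are highest at day 2, Lce1k is below 0 at day 2 and above at day 5, and Tslp, Sprr2a1, Ptgs2 and Mmp13 are plotted far higher at day 2 than at 6 hours.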

How the data were processed

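RNA of cheek skin was sequenced and the authors deposited raw counts per gene. The submitters' processing notes name TopHat, TopHat2, Bowtie2, HTSeq and the mm10 build. The strand setting and the annotation release are not given in the sources used here. Tally lines for reads without a gene were dropped (no-feature reads were 11.2% to 12.3% of the counts in the 4 libraries kept and 18.3% in the library left out). Symbols came from GENCODE M21, which matched 45143 of 46078 gene IDs.

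The 2 MC903 and 2 ethanol libraries were fitted in edgeR 4.0.16 (R 4.3.3, limma 3.58.1) with TMM scaling, genes with at least 10 counts in total, and edgeR's quasi-likelihood test, adjusted by Benjamini and Hochberg's method at 0.05. Day 2 levels are cpm of TMM-scaled library sizes. Marker sums and levels at the other days are cpm of total counts. All fold changes against an ethanol or MC903 group at or under 3 counts a library use that floor and are lower bounds. Differences between days were contrasts in 1 fit of 29 skin libraries. Genes were named if the study names them for early skin, if they had the smallest p or largest change in a direction, or if they were list members with 2-fold, non-overlapping differences. The members and lists were chosen with earlier results of these data known. Alternatives were DESeq2 1.42.0, its size factors, other filters, all 5 libraries with and without a neuronal term, a replicate block, a fit over days, and leaving out each library.

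The day 2 fit was tested on simulated data with 200 changed genes, of which it recovered 0 at a true log2 fold change of 1, 140 at 2 and 194 at 3. False calls numbered 0, 8 and 6 in turn. The changed genes were drawn from well-counted genes only, so recovery of rare genes was not tested. Counts per library of 23222800 to 28927563 set the counting error only. Promoter sequences are from RefSeq (GRCm38.p6). The 2 same-numbered pairs of libraries are not paired by the labels. One gene on the list of early skin genes is not reported here.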

Additional observations from a re-analysis of the deposited data

Results flagged for a closer look

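In the fit over days, the difference of the MC903 effect between day 2 and another time passed the edgeR test for the genes below, up to 3 in each direction for each pair of times. Against 6 hours, the log2 effect at day 2 was larger by 6.86 for Tslp, 4.43 for Rbp2 and 2.95 for Ces2g, and the values of day 2 minus 6 hours were -4.64 for Gm5849, -4.74 for Gm10720 and -1.62 for Trnp1. Gm10720 was rare, at 0.0719 and 0.0861 cpm under MC903 at day 2, and Trnp1 had 2521 counts in the left-out library against 213 and 218 in ethanol skin.

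From day 2 to day 5, the log2 effect was larger at day 5 by 5.06 for Lce1k, 4.75 for Lce1g and 3.24 for Kctd4, and the values of day 5 minus day 2 were -4.95 for Krt77, -3.55 for Wnt16 and -5.04 for Mrgprb3, a Mas-related G protein-coupled receptor. Between day 2 and day 8, the log2 effect was larger at day 8 by 4.08 for Lce1k, 2.73 for Kctd4 and 4.29 for Lce1h, and the values of day 8 minus day 2 were -5.26 for Slc39a4, -5.46 for Krt77 and -3.89 for Wnt16. Mrgprb3 had 3.06 and 4.85 cpm under MC903 at day 2 and 0.103 to 0.239 cpm at day 5.

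The left-out MC903 library carried a signal outside the comparison, with its sensory-neuron markers summing to 5059.4 cpm. Gene by gene, its level of these 24 markers above that of the other skin libraries was a median of 35.2% of the ganglion level, with a range of 27.2% to 47.3%.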

How the results depend on the processing

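With 2 libraries a group, the number of genes past the threshold depended on the setting. It was 60 in the fit reported, 607 with DESeq2, 570 with no filter on low counts, 885 in the fit over 4 times, 514 with a replicate block and 0 with MC903 replicate 3 included (1191 at an unadjusted p under 0.05), and it spanned 43 to 3207 over fits that left out 1 library, the highest without MC903 replicate 2. DESeq2 size factors gave 67, filterByExpr 49, and replicate 3 with a neuronal term 78. The 2801 genes that did not overlap with a 2-fold difference became 2702 to 6292 without 1 library. The 60 genes kept their direction in all 12 alternatives, most of which refit the same libraries or leave out 1 of them. As the 60 were free of overlap, their direction had little room to change there. All 60 also passed with DESeq2, with its size factors, without a filter, with the neuronal term and with the block. Of the other settings, the fit over days kept 58 and filterByExpr 49. Over the named genes and the 12 alternatives, 5 of 1600 values reversed, all of keratins near 0. Krt5 had -0.37 and Krt10 -0.33 with replicate 3 included, and without 1 library they spanned -0.047 to 0.18 and -0.051 to 0.27.

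The share of genes whose effect at day 2 differed was 1.24% against 6 hours, 3.0% against day 5 and 1.84% against day 8. With MC903 replicate 3 it was 0.563%, 2.93% and 2.85%, and for day 8 without the libraries whose titles carry brackets 0.434%. Leaving out 1 day 2 library gave 0.219% to 10.2%, 0.807% to 11.2% and 0.428% to 11.1%. Trnp1, day 2 minus 6 hours, turned from -1.62 to 1.53 with replicate 3 included, a library in which it had 2521 counts. Same-numbered libraries deviated together with a correlation of 0.292 over 17398 genes, but with 2 pairs and no pairing in the labels the block, which gave 514 genes against 60, is an alternative only. Depth limits the rarest genes, such as Cxcl3 and Cxcl5 at 0 to 15 counts a library. Strand, annotation and close gene copies could not be checked from the counts.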

Other observations

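Among single genes on the lower side that were in no list, those with the smallest p after the keratin-associated genes and Alox12e fell short of the threshold. Ifitm6, of the interferon-induced transmembrane family, had 218 and 352 counts in ethanol skin and 19 and 30 counts in MC903 skin (log2 fold change -3.45, edgeR adjusted p = 0.0725), against the direction of the interferon list. Otud1, a deubiquitinase, had 1292 and 1685 against 366 and 437 counts, Aldh3a1, an aldehyde dehydrogenase, 1569 and 1037 against 339 and 419 counts, and Id4, an inhibitor of helix-loop-helix factors, 1009 and 807 against 248 and 315 counts. In the left-out library Ifitm6, Otud1, Aldh3a1 and Id4 had 44, 472, 85 and 727 counts, below both ethanol libraries for each gene. That library held less skin RNA, with keratinocyte markers at 6726 cpm against 12089 to 18318 cpm in the libraries kept. A skin gene could lie below both ethanol libraries there without an effect of MC903, so these counts do not add to the comparison.

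Marker lists of some other cell types were also summed. The summed level of 11 sebaceous gland markers was 4412 and 4128 cpm in ethanol skin and 7503 and 4649 cpm in MC903 skin, without overlap. Of the 11, 4 were higher without overlap, against 20.7% of all genes tested, and 1 was lower, against 21.8%. None of these differed by 2-fold. Mast cell markers summed to 160.4 and 130.8 against 166.4 and 145.8 cpm, and red blood cell markers to 492.9 and 316.0 against 248.7 and 553.4 cpm. Endothelial markers were at 156.0 to 193.9 cpm in all 4 libraries. None of the genes on these lists passed the test.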
